A study of Mus musculus with 22 samples.

Results

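EBRTcH3 is a mouse embryonic stem cell (ESC) line that carries a tetracycline-regulated expression unit, and one of its cultures was made to express Prdm14. The comparison set the array titled for Prdm14 in this line against the array of the parental line on the same slide. These were 2 of the 22 arrays of the study, which followed how primordial germ cells (PGCs) acquire pluripotency and also forced germ cell genes in ESCs. Each group had 1 array, so the difference between Prdm14 and parental cells has no replicate check. Per the labels, the Prdm14 cells were GFP-positive cells, as were the cells of 6 other EBRTcH3 cultures titled for forced Vasa, Nanos2, Nanos3, Dnd, GFP or Blimp-1. The parental cells were described as ESCs, with no GFP selection named, so the construct and the selection cannot be told apart in that comparison. All 8 cultures were grown in Knockout DMEM with KSR and LIF. The titles of the GFP and Blimp-1 cultures name an EF1a promoter, an IRES-GFP cassette and day 2, but the promoter, the time of expression and the number of clones for Prdm14 are not given in the sources used here.

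Prdm14 encodes a PR-domain zinc-finger protein that is needed for the specification of mouse PGCs. In mouse ESCs it is known to protect the naive state by repressing FGF receptor signalling and the de novo DNA methyltransferases, acting with the corepressor Cbfa2t2 and with Polycomb repressive complex 2 (PRC2). Naive ESCs resemble the inner cell mass, and loss of that state leads to a primed, epiblast-like state marked by genes such as Fgf5 and Otx2. A small, changing share of ESCs switches on genes of the 2-cell embryo, among them the Zscan4 and Tcstv families.

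No probe in the tables used here carries the name Prdm14, so the forced gene itself was not measured. The probes of the other forced genes were a weak check of the labels. Nanos3 stood at 2.66 on the Nanos3 array, against -0.96 on the Prdm14 array, -3.19 to -0.33 on the other construct arrays and -2.48 on the parental array. The level used here is the log2 intensity minus the log2 of the 75th percentile of that array. Dnd1 was at 1.43 on the Dnd array, but at 1.92 on the Blimp-1 array. Ddx4, the Vasa gene, was at 0.01 on the Vasa array, lowest of the 8 arrays, Prdm1, the Blimp-1 gene, was at -1.38 on the Blimp-1 array, and Nanos2 was not well above background on any of the 8. Whether these probes read the construct's transcript is not given in the sources used here.

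The labelled cell type was checked against markers of pluripotent stem cells. Of 9 markers, 8 were above background on the Prdm14 or parental array, with Pou5f1 at 5.59 in Prdm14 cells and 6.37 in parental cells and Zfp42 at 6.67 in Prdm14 cells and 7.18 in parental cells. The 75th percentile lay at an intensity of 464.6 on the Prdm14 array, at 194.8 to 407.8 on the 6 other construct arrays and at 195.5 on the parental array. The percentage of spots above background was 55.9 for Prdm14, 54.1 to 62.0 for the 6 others and 49.1, the lowest of the 8, for parental. On the Prdm14 array a horizontal band of spots stood out, in rows that were raised on the 7 other arrays too. Among probes that were not above background on the 7 other arrays, 5.03% were called above background on the Prdm14 array in a band of 6 adjacent blocks of 30 rows, ending at row 330 of 532, against 1.03% in its other rows. The parental and Vasa arrays of the same slide had 3.69% and 4.57% in those rows, against 0.676% and 1.63% in their other rows. Counted the same way, the arrays of other slides also had more calls in those rows. GFP had 6.06% against 2.63%, Blimp-1 4.70% against 2.52%, Nanos3 8.43% against 6.44%, Nanos2 1.96% against 1.10% and Dnd 3.37% against 2.66%. Main counts, and list counts where they differ most, are therefore also given without genes whose spot lay in that band or was uneven, meaning that the standard deviation of its pixels was over 0.2 of their mean.

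**Figure D1:**
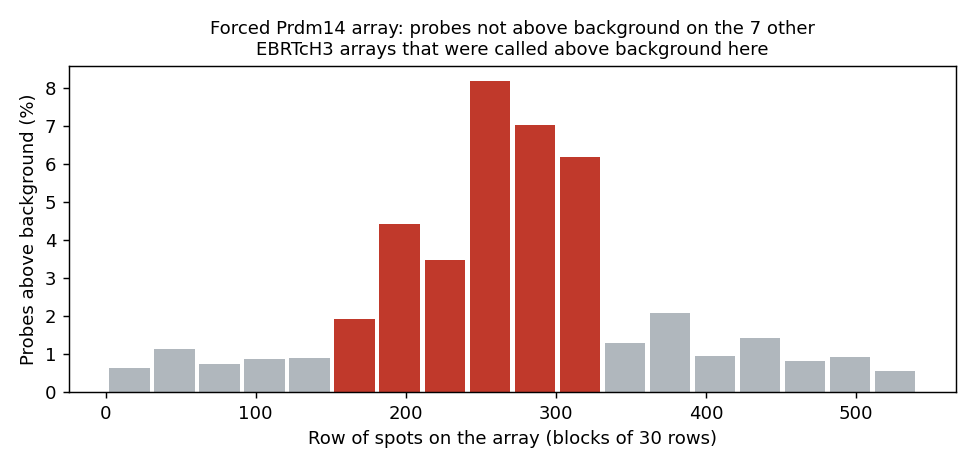
For each block of 30 rows of the Prdm14 array (x axis), the bars give the percentage of probes not above background on the 7 other EBRTcH3 arrays that were called above background here. The bars of the 6 blocks of the band, in red, reach 8.18%, and no block outside the band passes 2.09%.

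In the whole table, 4725 of 16150 genes (29.3%) differed at least 2-fold between Prdm14 and parental cells, of which 1947 (12.1% of all) were higher and 2778 (17.2%) were lower in Prdm14 cells, with 918 of these differences as bounds. The balance depended on the control and the scaling, with 1492 higher and 1209 lower against GFP cells, 1441 higher and 826 lower against Vasa cells, and 2121 higher and 2215 lower than parental after quantile normalization. A difference is a bound where 1 side was not well above background, and that side was then set no lower than the lowest level called above background on its array. The median difference over all genes was -0.21 on the log2 scale. Because every construct array is compared with the same parental array, a gene was called apart on the Prdm14 array only where it was at least 2-fold from parental and also at least 2-fold beyond the nearest of the 6 other constructs. This held for 167 genes that were higher (1.03%) and for 30 that were lower (0.186%), and with normexp background correction for 46 and 12. The same rule applied to each of the other constructs gave 70 to 350 higher and 2 to 376 lower, with Nanos3 at the top of both ranges. Of the 167 higher genes, 90 (53.9%) lay in the band and 69 (41.3%) had uneven spots, against 36.1% and 6.98% of all genes, and 67 were free of both. The part of the band in these values was not tested beyond the counts without it. Of the 30 lower genes, 11 lay in the band, 1 was uneven and 18 were free of both.

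Prdm14 was also tested against the 6 other constructs with limma, with the spread taken from those 6 arrays and the lone Prdm14 array assumed to vary like them. No gene of 19204 passed a Benjamini-Hochberg adjusted p under 0.05 (0.0% higher and 0.0% lower), and 757 (3.94%) had an unadjusted p under 0.05. In simulated data drawn with the spread of the 6 arrays, the test found 11% of genes changed by a log2 of 2 and 56% of those changed by a log2 of 4. The smallest adjusted p was 0.0510, for Cmah and Rab11fip2, whose spots lay in rows 181 and 180, inside the band. The counts and values that follow are therefore descriptions of single arrays.

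Genes of the 2-cell embryo were mostly higher on the Prdm14 array than on the other 7 arrays. Of all spots, 55.9% were above background on the Prdm14 array, 54.1% to 62.0% on the 6 others and 49.1% on the parental array. Of the 11 list members on the array, 10 were above background in Prdm14 cells, against 5 to 8 in each of the 6 other cultures and 2 in parental cells. All 10 were at least 2-fold above the median of the 6 other constructs, where 6.29% of all genes were. Against parental 7 were at least 2-fold higher, where 12.1% of all genes were. The median difference was 2.02 from the 6 others (-0.00 over all genes) and 1.61 from parental (-0.21 over all genes), on the log2 scale and with bounds. Only 2 of the 10 were above background in parental cells. The others entered the comparison with parental only through the Prdm14 array, where they were high, and could not come out lower. Several also entered the comparison with the 6 others only through that array, so the counts describe the list and do not test it. The 4 that were apart, where 1.03% of all genes were apart and higher, were Tcstv1, Usp17la, Zfp352 and Arg2. All 10 had even spots, and 8 lay outside the band, of which 3 were apart. In bulk RNA of this kind, a changed number of cells that express a gene and a changed amount of its RNA per cell cannot be told apart.

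Tcstv1 encodes a 2-cell-stage transcript of a small variable family. Its level was 2.41 in Prdm14 cells, against a lowest of -3.66, a median of -1.64 and a highest of 0.30 in the 6 other cultures and -2.52 in parental cells. The Prdm14 value stood above all 7 others, 30.6-fold over parental and 4.31-fold over the nearest construct, Blimp-1. The other 2 Tcstv1 probes were higher than parental by 3.97 and, where parental cells were not above background, by at least 3.46 on the log2 scale. Usp17la, a deubiquitinating enzyme gene, was at 1.36 in Prdm14 cells, against -3.81, -2.31 and -1.04 as lowest, median and highest of the 6 others and -4.23, not above background, in parental cells. That made it at least 28.7-fold higher than parental and 5.28-fold above the nearest construct. Zscan4c, which encodes a zinc-finger protein tied to telomere maintenance in mouse ESCs, was at 0.67 in Prdm14 cells and at -3.12 to 0.00 in the 6 others, with -3.40, not above background, in parental cells. It was the highest of the 8 but not apart, since Blimp-1 cells stood at 0.00 and GFP cells at -0.32. Lgals4, a galectin gene, had the same order, at 0.53 in Prdm14 cells, 0.41 in Blimp-1 cells, -1.01 in GFP cells and -3.17, not above background, in parental cells. Gm5662 was at 3.05 in Prdm14 cells, 0.97 to 2.24 in the 6 others and 1.86 in parental cells. Its other probe differed more, at 2.33 in Prdm14 cells, -5.14 to -1.10 in the 6 others and -4.16, not above background, in parental cells. Zfp352 was above background only on the Prdm14 array, at -1.44, against -7.38 to -4.97 in the 6 others and -5.66 in parental cells, and was at least 4.11-fold higher than parental. Arg2, an arginase gene, was at -2.45 in Prdm14 cells, -6.51 to -3.70 in the 6 others and -5.75 in parental cells. Tcstv3 and Usp17lc were near the floor, and Sp110 was at -2.65 in Prdm14 cells but higher in Nanos3 cells, at -1.86. By limma against the 6 others, the adjusted p was 0.780 for Tcstv1 (difference 4.16, SE 1.28), 0.647 for Usp17la (3.76, SE 1.03) and 0.265 for Zfp352 (4.92, SE 1.00, measured against levels not above background in all 6). Over the alternatives these ranged from 0.350 to 1.00, 0.334 to 1.00 and 0.0492 to 0.851.

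**Figure D2:**
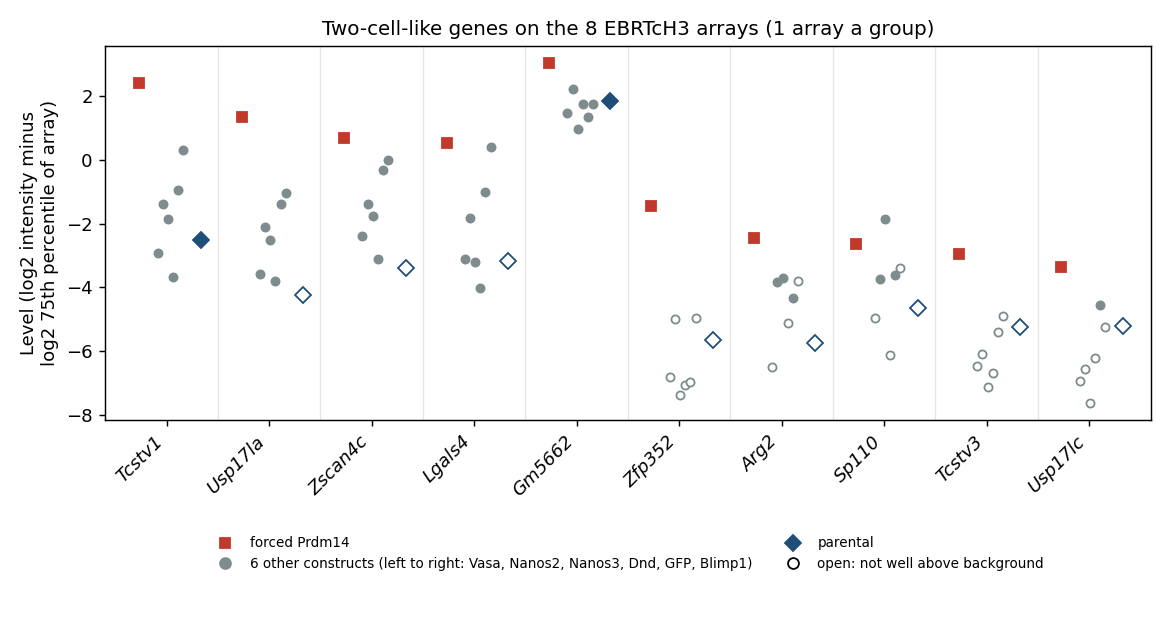
Levels (y axis, log2 intensity minus the log2 75th percentile of the array) of the 10 members of the 2-cell list that were above background, with the Prdm14 array as red squares, the 6 other constructs as grey circles and the parental array as blue diamonds, and open symbols where a probe was not well above background. The Prdm14 array is the highest of the 8 for every gene drawn except Sp110, where Nanos3 cells stood higher.

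Single genes of the early embryo and germ line outside that list were also high, while the list of later germline genes was mixed against parental. The genes in this paragraph were chosen after their values were seen, except Stra8, Smc1b, Tsx and Plagl1. Khdc3, a maternal-effect gene that keeps the genome stable in early embryos, was at 6.81 in Prdm14 cells, against 0.31 in Nanos3 cells and 2.74 to 4.93 in the other 5 construct cultures, and 2.12 in parental cells. Its spot was even but lay in the band. Stra8, which licenses entry into meiosis, was at 1.63 in Prdm14 cells, -4.53 to 0.08 in the 6 others and -1.65 in parental cells, 9.69-fold above parental, with an even spot in the band. Smc1b, the meiotic cohesin gene, was at -0.19 in Prdm14 cells, above the -1.03 of GFP cells and the -2.07 of Blimp-1 cells, and was not above background in parental cells. Of 22 later germline genes compared with the 6 others, 8 were at least 2-fold higher and 0 lower, where 6.29% of all genes were higher and 2.51% lower, with a median difference of 0.65. Against parental the same list gave 4 higher and 3 lower of 23, where 12.1% of all genes were higher and 17.2% lower. Outside the band it gave 2 higher and 3 lower of 19, with 0 apart, and all genes gave 1289 higher and 1684 lower of 10313. Tsx, a testis-expressed transcript near the X-inactivation centre, was at -0.41 in Prdm14 cells, -5.68 to -3.01 in the 6 others and -5.49 in parental cells. Plagl1, an imprinted zinc-finger gene, was at -0.75 in Prdm14 cells, at -2.50 and -2.99 in GFP and Blimp-1 cells, and not above background on the other EBRTcH3 arrays. The second Plagl1 probe was not above background in Prdm14 or parental cells. The study's ESC array, on another slide, stood above Prdm14 cells for Stra8 (6.28), Smc1b (0.93) and Plagl1 (0.59), but below for Tsx (-3.72). On the array titled EGCs the same genes were at 3.05, 0.82, 0.86 and -2.35.

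Several tissue kallikrein genes of the Klk1 cluster, a family noticed after the values were seen, were higher. Of its 14 probes, 6 were not above background in Prdm14 or parental cells, 5 were at least 2-fold higher than parental in Prdm14 cells and 1 was lower, where 12.1% of all genes were higher. Klk1 was at 0.65 in Prdm14 cells, -3.46 to -0.48 in the 6 others and -1.71 in parental cells, with its spot in the band. Klk1b4 was at -0.73 in Prdm14 cells, -4.77 to -1.79 in the 6 others and -2.88 in parental cells, with its spot outside the band. Both genes were chosen after their values were seen. The 2 probes are shown because the paralogues cannot be told apart with certainty: both are 60 bases long and cross an exon junction, and the capitals mark the longest run they share, 28 bases. The Klk1 probe maps to chr7:51484170-51484325 and the Klk1b4 probe to chr7:51466302-51466457, both on the plus strand of mm9, as the deposited files give them.
Klk1: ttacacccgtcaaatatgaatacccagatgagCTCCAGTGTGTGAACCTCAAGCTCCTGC
Klk1b4: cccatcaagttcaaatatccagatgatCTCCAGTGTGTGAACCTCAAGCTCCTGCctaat
On both probes all 6 other constructs and the parental cells stood more than 2-fold below Prdm14 cells, with Nanos2 cells nearest.

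By the naming rule, the higher genes farthest beyond the other constructs were led by Rcsd1, an actin-capping regulator. It had 2 probes, and the dimmer was not above background in Prdm14 or parental cells. On the brighter probe the 6 others had -3.77, -2.25 and -1.68 as lowest, median and highest. Rcsd1 was at 2.45 on it in Prdm14 cells and -3.43, not above background, in parental cells, at least 58.7-fold over parental. Its spot was even and outside the band, its limma difference was 4.87 (SE 0.70), and the adjusted p was 0.0864, with a range of 0.00488 to 0.549 over the alternatives. Of the other 11 genes that the rule named, only Tsx and Cryge, a lens crystallin gene, had even spots outside the band. Tcrb-J, Rab11fip2, Vmn2r87, Sh2d2a, Cfap58, Cmah, Pak3 and Hid1 all lay in the band, at levels of -0.84 to -0.19 on the Prdm14 array, and Hdac11 had an uneven spot outside it. Outside the band, and chosen after their values were seen, the brightest even spots among the genes apart included Myo1g and Mlana. Myo1g, a myosin of blood cells, was at 2.06 in Prdm14 cells, -3.18 to 0.85 in the 6 others and -0.88 in parental cells. Mlana, a melanosome protein gene, was at 2.02 in Prdm14 cells, -2.47 to 0.51 in the 6 others and -3.17 in parental cells. Of the 11 blood markers, 6 were above background. Of these, 2 were at least 2-fold higher than parental and 1 was lower, against 12.1% and 17.2% of all genes. Hbb-bh1, an embryonic globin gene, was at -1.09 in Prdm14 cells, close to the -1.32 of Dnd cells, the -1.48 of Nanos3 cells and the -1.75 of Vasa cells, and was not above background in parental cells. Laptm5 was at 1.78 in Prdm14 cells, 0.53 to 2.21 in the 6 others and 0.52 in parental cells, and Csf1r at -2.71 in Prdm14 cells and -1.55 in parental cells. The other 5, including Ptprc and Tyrobp, were not above background in Prdm14 or parental cells. The part of other cell types in the higher genes was not tested.

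Among genes that were lower with forced Prdm14, primed epiblast genes formed a group that the Vasa array of the same slide shared in part. Compared with the 6 other constructs, 10 of 14 members were at least 2-fold lower and 0 higher, where 2.51% of all genes were lower, with a median difference of -1.14. Compared with parental, 6 of 13 were at least 2-fold lower and 1 higher, against 17.2% and 12.1% of all genes, with a median of -0.87. Of the members, 3 were apart, where 0.186% of all genes were apart and lower: Fgf5, Cldn6 and Sfrp2. The counts against parental were the same with uneven spots left out and with the band left out. Fgf5, the FGF ligand that marks the primed epiblast, was at -4.34, not above background, in Prdm14 cells. In the 6 others it was at -2.99, -2.27 and 0.26 as lowest, median and highest, and in parental cells at -1.18. Prdm14 cells were below all 7 other cultures, at least 8.90-fold below parental. Otx2, a transcription factor of the primed state, was at -1.74 in Prdm14 cells, -1.28 to 1.42 in the 6 others and 1.85 in parental cells, so Prdm14 cells were lowest but within 1.38-fold of Blimp-1 cells. Cldn6, a tight junction claudin, was at -1.30 in Prdm14 cells, -0.03 to 2.39 in the 6 others and 0.62 in parental cells. Sfrp2, a secreted Wnt antagonist, was at -0.95 in Prdm14 cells, 0.09 to 1.11 in the 6 others and 0.22 in parental cells. Fst and Pou3f1 were lower than parental but within the range of the 6 others. Vasa cells were as low or lower for them, with Fst at -3.70 in Prdm14 cells and -3.74 in Vasa cells, and Pou3f1 at 0.76 in Prdm14 cells and 0.43 in Vasa cells. The member at least 2-fold above parental was Dnmt3a, which the list shares with the DNA methylation genes. Some members at least 2-fold below the median of the 6 were not lower than parental. Dnmt3b and Lef1 were above parental by 0.46 and 0.40 on the log2 scale. Wnt3 had a bound of 0.00, and Wnt8a was not above background in Prdm14 or parental cells.

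FGF ligands and receptors did not move as a block. Of 12 above background, 4 were at least 2-fold lower than parental and 0 higher, against 17.2% and 12.1% of all genes. The 4 were Fgf5, Fgf15, Fgf17 and Fgfrl1. Fgf15 was at -2.84 in Prdm14 cells, -2.51 to -0.27 in the 6 others and -1.59 in parental cells. Fgfrl1, a receptor-like gene without a kinase domain, was at -1.45 in Prdm14 cells, -1.13 to -0.38 in the 6 others and 0.07 in parental cells. The 4 receptors Fgfr1 to Fgfr4 differed from parental by 0.11 to 0.70 on the log2 scale, all slightly higher, and lay inside the range of the 6 others. Fgfr1 was at -0.94 in Prdm14 cells, -0.99 to 0.28 in the 6 others and -1.64 in parental cells, and Fgfr2 at -2.38 in Prdm14 cells, -2.46 to -0.74 in the 6 others and -2.49 in parental cells.

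Genes that respond to ERK, the kinase downstream of FGF receptors, went both ways. With even spots alone, 4 of 15 were at least 2-fold lower than parental and 4 higher. All genes with even spots gave 2657 lower and 1733 higher of 15022. Of the full 18, 6 were lower and 4 higher, where 17.2% of all genes were lower and 12.1% higher. The lower ones were mostly feedback inhibitors. Spry1 was at 0.64 in Prdm14 cells, 1.77, 2.32 and 2.52 as lowest, median and highest of the 6 others and 2.88 in parental cells, 4.73-fold below parental and apart, although its spot was among the uneven ones. Dusp6, an ERK phosphatase, was at 3.34 in Prdm14 cells, 3.52 to 5.01 in the 6 others and 4.99 in parental cells. Dusp1, Dusp4, Spry2 and Spred1 were the other 4. The higher ones were Myc, Etv4, Etv5 and Phlda1. Myc was at 2.20 in Prdm14 cells, 0.91 to 2.04 in the 6 others and -0.32 in parental cells, and Etv4 at 2.76 in Prdm14 cells, 1.70 to 2.60 in the 6 others and 0.94 in parental cells. Against the 6 others only Spry1 was at least 2-fold away, and Spry4 was at 1.75 in Prdm14 cells and 1.64 in parental cells.

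Of 13 targets of Nodal and activin, 2 were at least 2-fold above the median of the 6 other constructs and 3 below. All genes gave 6.29% above and 2.51% below. Of 12 compared with parental, 3 were at least 2-fold higher and 2 lower, against 12.1% and 17.2% of all genes. Outside the band 3 were higher than parental and 0 lower of 6, and all genes gave 1289 higher and 1684 lower of 10313. Lefty1, a secreted Nodal antagonist, was at 1.37 in Prdm14 cells, 2.27, 4.79 and 5.03 as lowest, median and highest of the 6 others and 5.35 in parental cells. It was 15.8-fold below parental and below all 6 constructs, with Nanos3 cells nearest at 1.87-fold, and its spot lay in the band. Lefty2 was at -1.02 in Prdm14 cells and 1.28 in parental cells, with Nanos3 cells lower still at -1.75, and its spot lay in the band as well. Nodal itself was at 4.52 in Prdm14 cells, 4.06 to 5.29 in the 6 others and 4.96 in parental cells. Tgfbi, Inhbb and Pmepa1 were the genes higher than parental.

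The genes that were lowest beyond the other constructs by the naming rule were led by Sox11 and Fzd7. Sox11, an SRY-box factor of early neural cells, was at -5.00, not above background, in Prdm14 cells. It was at -1.62, -0.96 and -0.37 as lowest, median and highest of the 6 others and -1.97 in parental cells, and so at least 5.23-fold below parental. The 2 other Sox11 probes that were above background in parental cells were not so in Prdm14 cells, with log2 differences as bounds of -1.37 and -2.12. On the measured levels, its limma difference from the 6 others was -3.97 (SE 0.48) with an adjusted p of 0.0550, and 0.0137 to 0.539 over the alternatives. Fzd7, a Wnt receptor, was at -1.44 in Prdm14 cells, 0.54, 0.96 and 1.42 in the 6 others and 1.98 in parental cells, 10.8-fold below parental. Its limma difference was -2.42 (SE 0.40), with an adjusted p of 0.138. Plaur, the urokinase receptor, was at -0.20 in Prdm14 cells, 1.72 to 2.87 in the 6 others and 1.33 in parental cells. Mirg, a non-coding RNA of the imprinted Dlk1-Dio3 cluster, was at -0.37 in Prdm14 cells, 1.03 to 2.44 in the 6 others and 2.20 in parental cells, with its spot in the band. Its neighbour Meg3 was at -0.75 in Prdm14 cells, -0.08 to 1.23 in the 6 others and 0.33 in parental cells, while Dlk1 was higher than parental, at -0.89 in Prdm14 cells and -2.11 in parental cells. Gdf1, a ligand that partners Nodal, was at 1.06 in Prdm14 cells, 2.21 to 3.24 in the 6 others and 2.52 in parental cells, and was chosen after its value was seen. Lpp, Tmem54, Pclaf, Zfp266 and Serp2 completed the 12 with Grhl2, Prss8 and Fgf5.

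Grhl2 is a transcription factor that drives epithelial junction genes, and several such genes were among the 30 that were lower. A list of 35 epithelial junction and polarity genes was therefore drawn up after the values were seen, and its counts are a description only. Of 32 above background, 17 were at least 2-fold lower than parental and 5 higher, where 17.2% of all genes were lower and 12.1% higher. Against the 6 others 10 of 33 were lower and 1 higher, where 2.51% of all genes were lower and 6.29% higher. Over all genes, 0.186% were apart and lower. The 5 list members that were apart were Grhl2, Prss8, Rab25, Ap1m2 and Cldn6, of which Prss8 and Ap1m2 lay in the band. Outside the band 11 of 17 were lower than parental and 4 higher, where 1684 of all 10313 genes were lower and 1289 higher. Grhl2 was at -1.40 in Prdm14 cells, 0.27, 1.09 and 1.28 as lowest, median and highest of the 6 others and 0.74 in parental cells, below all 7. These values rest on 1 of its 3 probes, as the others were not above background in Prdm14 or parental cells. Prss8, a membrane-anchored serine protease of epithelia, was at -2.31 in Prdm14 cells, -0.85 to 1.54 in the 6 others and 0.55 in parental cells. Rab25, a small GTPase of apical recycling, was at -2.0 in Prdm14 cells, -0.91 to 0.88 in the 6 others and -0.27 in parental cells, 3.30-fold below parental. Ap1m2, the epithelial subunit of the AP-1 clathrin adaptor, was at 0.04 in Prdm14 cells, 1.23 to 2.48 in the 6 others and 2.39 in parental cells. The second Ap1m2 probe was not above background in Prdm14 or parental cells. Epcam, the epithelial adhesion molecule, was at 0.26 in Prdm14 cells, 1.21 to 1.87 in the 6 others and 1.54 in parental cells, just short of 2-fold below the nearest construct. Cdh1, which encodes E-cadherin, was not lower, at 3.09 in Prdm14 cells, 2.01 to 3.76 in the 6 others and 1.88 in parental cells.

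The probes of 3 of these genes are shown because each crosses an exon junction, so that it reads spliced transcript. They map on mm9 to chr3:88346274-88346663 (minus strand), chr9:21102750-21103762 (minus strand) and chr17:88048972-88049800 (plus strand), as the deposited files give them, and each is 60 bases long, with no part capitalised.
Rab25: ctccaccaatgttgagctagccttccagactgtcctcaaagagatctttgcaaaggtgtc
Ap1m2: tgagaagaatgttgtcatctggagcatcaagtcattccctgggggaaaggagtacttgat
Epcam: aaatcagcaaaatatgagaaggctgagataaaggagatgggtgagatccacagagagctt

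**Figure D3:**
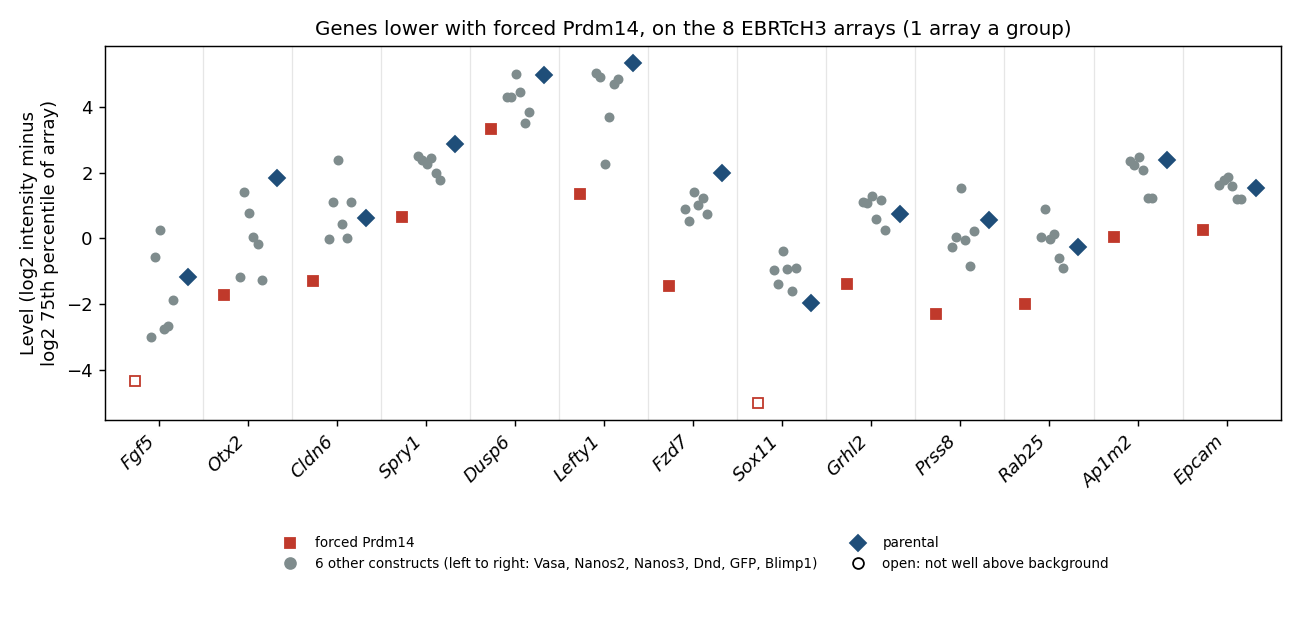
Levels (y axis, log2 intensity minus the log2 75th percentile of the array) of 13 genes that were lower with forced Prdm14, some chosen after their values were seen, with symbols for Prdm14 (red squares), the 6 other constructs (grey circles) and parental cells (blue diamonds). The Prdm14 array is the lowest of the 8 for every gene drawn, and Fgf5 and Sox11 were not above background on it (open symbols).

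The DNA methylation genes did not move together. Of 7 writers and cofactors, 2 were at least 2-fold higher than parental and 0 lower, against 12.1% and 17.2% of all genes. None was apart from the 6 others. Dnmt3a, a de novo methyltransferase, was at 2.09 in Prdm14 cells, 0.45, 1.48 and 2.28 as lowest, median and highest of the 6 others and 0.27 in parental cells. Dnmt3b, the other de novo enzyme, was at 2.80 in Prdm14 cells, 2.68, 3.95 and 4.52 in the 6 others and 2.34 in parental cells, so it was above parental but below 5 of the 6 constructs. Dnmt3l, their catalytically inactive cofactor, was at 6.15 in Prdm14 cells, 6.27 to 7.25 in the 6 others and 6.97 in parental cells, lowest of the 8 but within 1.08-fold of Nanos3 cells. Dnmt1, the maintenance enzyme, was at 0.22 in Prdm14 cells, -0.57 to 1.81 in the 6 others and -1.15 in parental cells. By limma against the 6 others the adjusted p was 1.00 for Dnmt3b (difference -1.04, SE 0.64) and 1.00 for Dnmt3a (0.61, SE 0.69). Of 12 genes of DNA demethylation and repair, 6 were at least 2-fold above parental and 1 below, against 12.1% and 17.2% of all genes. Outside the band, 2 were above and 1 below of 6, and all genes gave 1289 above and 1684 below of 10313. Tet1, a 5-methylcytosine oxidase, was among the 6 higher genes of the full list, at 1.28 in Prdm14 cells and -0.46 in parental cells. Both Tet1 and Apobec1 had their spots in the band. Against the 6 others only Apobec1, a cytidine deaminase gene, was at least 2-fold higher, and Tet1 lay inside their range of 0.20 to 2.18.

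Partners of Prdm14 and subunits of PRC2 were mostly within 2-fold of parental. Of 13 genes, 2 were at least 2-fold higher than parental and 0 lower, against 12.1% and 17.2% of all genes. The 2 were Jarid2, at 2.76 in Prdm14 cells and 0.62 in parental cells, and Aebp2, at -0.10 in Prdm14 cells and -1.27 in parental cells. Jarid2 lay inside the range of the 6 others, 1.76 to 3.53, its spot was uneven, and its other 2 probes differed from parental by 3.03 and -0.79 on the log2 scale. Aebp2 was just above theirs, -2.36 to -0.47. Cbfa2t2 was at 3.59 in Prdm14 cells, 3.36 to 4.32 in the 6 others and 4.27 in parental cells. Its difference from parental was -0.68 on the log2 scale, while its other probe above background differed by 0.47. The catalytic subunit Ezh2 was at 2.48 in Prdm14 cells, 1.92 to 2.83 in the 6 others and 2.08 in parental cells. The core subunits Eed and Suz12 differed from parental by -0.74 and 0.61 on the log2 scale. Their other probes above background differed by -1.05 for Eed and 0.47 for Suz12.

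Core and naive pluripotency genes also stayed close. All 27 on the array were above background. Of these, 4 were at least 2-fold higher than parental and 2 lower, against 12.1% and 17.2% of all genes. The median difference was -0.09 from parental and -0.02 from the 6 others. Nanog was at 5.29 in Prdm14 cells, 2.29 to 5.52 in the 6 others and 5.24 in parental cells. Sox2 was at 3.75 in Prdm14 cells, 2.94 to 3.99 in the 6 others and 3.66 in parental cells, and Esrrb at 5.24 in Prdm14 cells, 2.35 to 5.62 in the 6 others and 5.33 in parental cells. Klf4 was at 5.48 in Prdm14 cells, highest of the 8, against 2.29 to 5.19 in the 6 others and 4.08 in parental cells. Tbx3 and Dppa2 were at least 2-fold above the median of the 6, Tbx3 at 4.51 in Prdm14 cells, 0.18 to 4.22 in the 6 others and 4.21 in parental cells. The lowest value of the 6 for Nanog, Klf4 and Esrrb came from Nanos3 cells, and none of these genes was apart on the Prdm14 array.

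**Figure D4:**
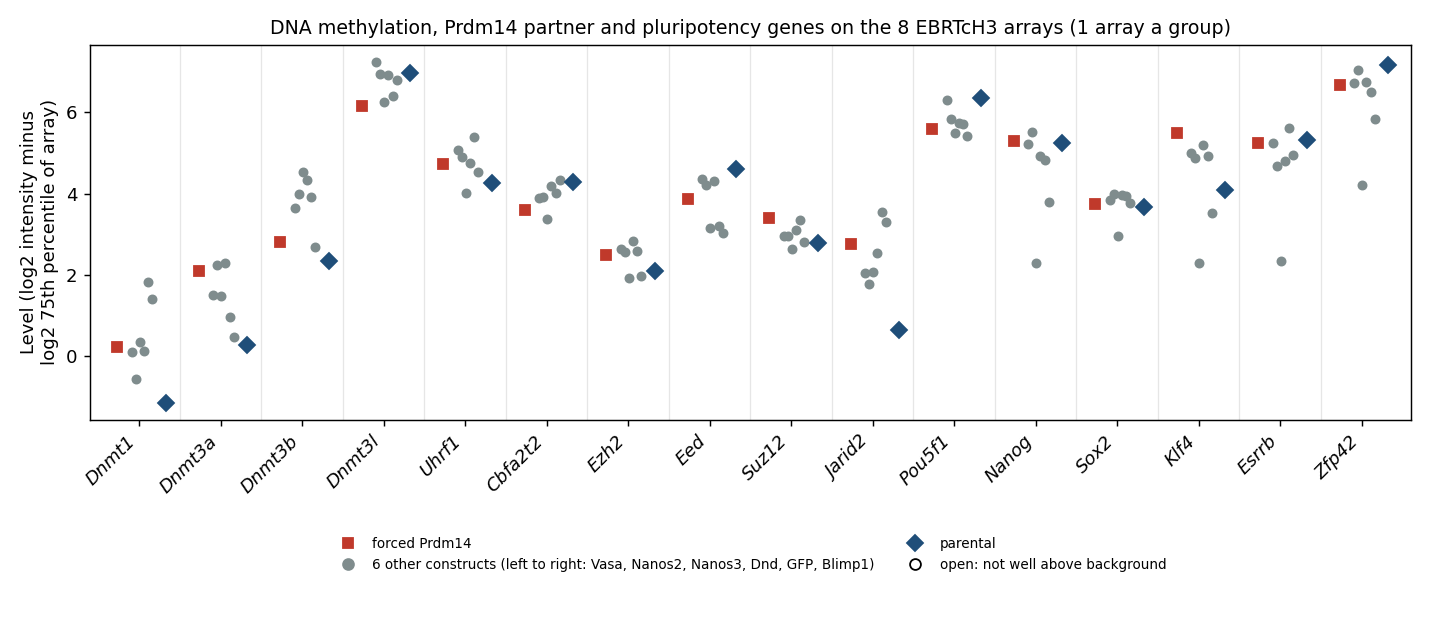
Levels (y axis, log2 intensity minus the log2 75th percentile of the array) of 16 DNA methylation, Prdm14 partner and pluripotency genes, with symbols for Prdm14 (red squares), the 6 other constructs (grey circles) and parental cells (blue diamonds). The Prdm14 array lies inside the range of the 6 others for most genes, is lowest of the 8 for Dnmt3l and is highest for Klf4 and Suz12.

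Genes of PGCs were not higher as a group. Of 16, 3 were at least 2-fold higher than parental (Kit, Nanos3 and Alpl) and 6 lower, against 12.1% and 17.2% of all genes. The median difference from parental was -0.46, against -0.21 over all genes. Compared with the 6 others, 1 was at least 2-fold higher and 2 lower, against 6.29% and 2.51% of all genes. Kit, the receptor for stem cell factor, was at 1.10 in Prdm14 cells, -1.46 to 0.45 in the 6 others and -0.17 in parental cells, highest of the 8. Dppa3 was at 2.66 in Prdm14 cells, 0.63 to 4.27 in the 6 others and 4.23 in parental cells. Tfap2c, a transcription factor downstream of Prdm1 in PGCs, was at 3.54 in Prdm14 cells, 2.86 to 4.54 in the 6 others and 3.90 in parental cells. Prdm1 was lowest of the 8, at -1.46 in Prdm14 cells, -1.38 to 0.65 in the 6 others and 0.48 in parental cells. Ifitm1, a surface marker of early PGCs, was at 4.55 in Prdm14 cells, 5.05 to 6.38 in the 6 others and 6.24 in parental cells.

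Lists of other cell types had 1 to 3 genes at least 2-fold above the median of the 6 constructs and 0 below it. All genes gave 6.29% above and 2.51% below. The counts above were 3 of 14 trophectoderm, 2 of 10 fibroblast, 2 of 19 extraembryonic endoderm, 1 of 6 blood and 1 of 13 germ layer genes. Extraembryonic endoderm genes had 8 of 19 at least 2-fold above parental and 4 below, against 12.1% and 17.2% of all genes. Against the median of the 6 they had 2 above and 0 below. Sparc was at 4.79 in Prdm14 cells, 3.36 to 5.78 in the 6 others and 2.23 in parental cells, and Gata6 at -1.73 in Prdm14 cells, -2.39 to -1.05 in the 6 others and -0.31 in parental cells. Trophectoderm genes had 6 of 14 above parental and 2 below, and 3 above and 0 below the median of the 6, with a median difference of 0.48. One of the 3, Krt19, a keratin gene, was at 2.22 in Prdm14 cells, at a median of 0.84 in the 6 others, with Nanos3 cells above Prdm14 cells, and at 0.15 in parental cells. Of 14 fibroblast markers, 10 were above background, 1 was at least 2-fold above parental (Thy1) and 3 below, 2 were above and 0 below the median of the 6, and the collagen gene Col1a2 was at -1.28 in Prdm14 cells and -0.05 in parental cells. Targets of p53 had 1 above and 1 below parental of 17.

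**Figure D5:**
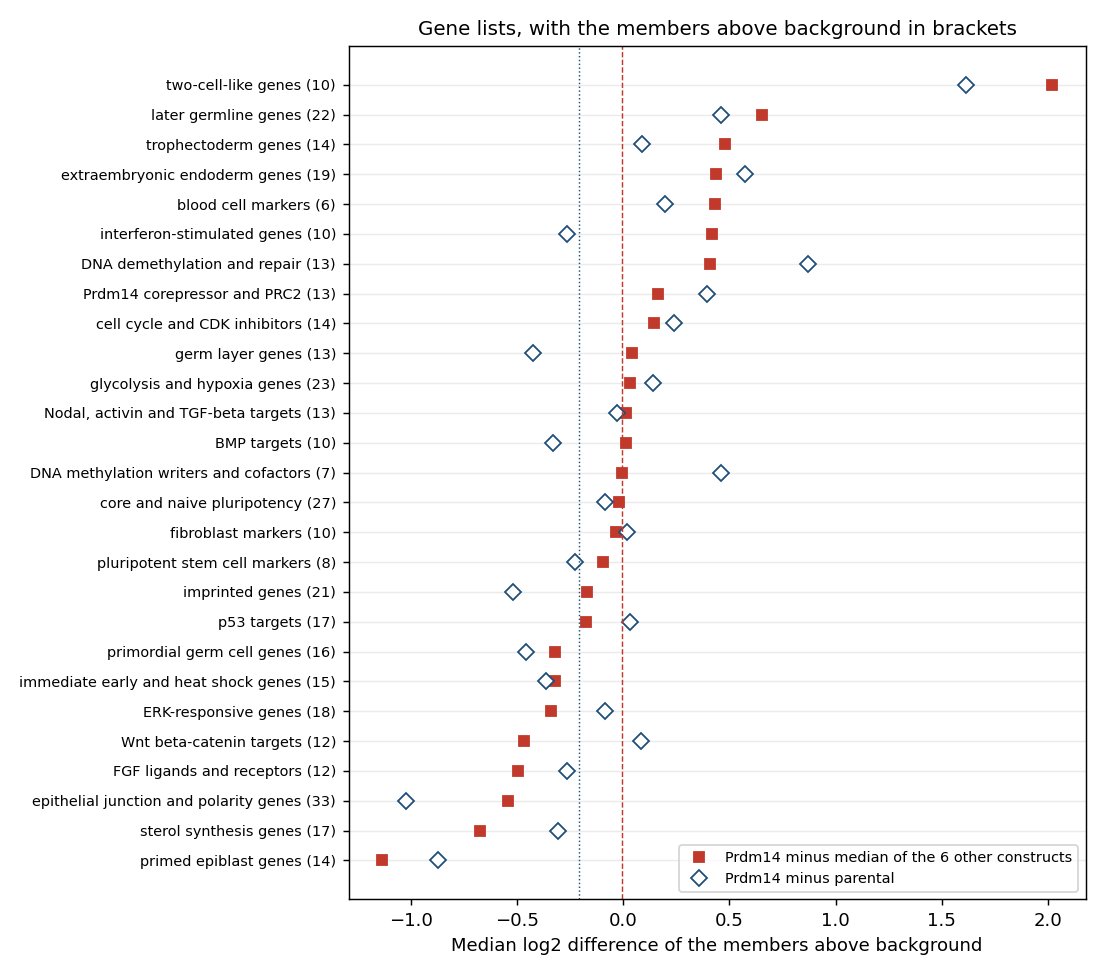
Median log2 difference (x axis) of each gene list (y axis, with the number of members compared with the 6 others in brackets), as Prdm14 minus the median of the 6 other constructs (red squares) and Prdm14 minus parental (blue diamonds). Dashed and dotted lines mark the same medians over all genes, -0.00 and -0.21. The 2-cell list lies highest at 2.02 and the primed epiblast list lowest at -1.14 against the 6 others.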

How the data were processed

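Gene expression was measured on 1-colour Agilent mouse arrays, 1 array per group. The deposited values are intensities from Agilent Feature Extraction 10.7.3.1, per the submitters' processing notes. They were corrected for background inside each array by the authors and no scaling across arrays was applied, per the file headers and the values. Probe coordinates are on mm9. A value table that the authors deposited, also of intensities, served only as an alternative.

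Control and outlier spots were dropped and repeat spots averaged. RefSeq accessions named 27027 of 41174 probes, symbols 5011, synonyms 796 and a description 1, while 8339 went by the deposited name. Of the resulting 28101 genes, 8716 had more than 1 probe and were represented by the brightest over the 8 EBRTcH3 arrays. Parental comparisons kept genes well above background on either array. Comparisons with the median of the 6 others kept genes so on Prdm14 or on at least 4 of the 6, and limma kept genes so on at least 1 of the 7. limma 3.58.1 in R 4.3.3 (lmFit, eBayes, two-sided, Benjamini-Hochberg) had 5 residual degrees of freedom and was tested on simulated data. Its p-values measure only the spread between these arrays, whose number limits the precision. The 6 other arrays each carry a different construct, so differences among constructs count as error and the SE is not a replicate error.

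The genes named were the forced genes, the 12 highest and 12 lowest beyond the other constructs among those apart (accession, clone, Gm and Rik names passed over), all measured members of the methylation, FGF and Prdm14 partner lists, up to 4 of each other list by size of difference from parental, and 9 fixed genes. Any other name was chosen after its values were seen. The members and lists were chosen with earlier results of these data known. Alternatives covered background correction, scaling, probe choice, filters, control array and slide. The Dnd array follows its title, since its source label reads End.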

Additional observations from a re-analysis of the deposited data

How the results depend on the processing

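The count of genes at least 2-fold apart between Prdm14 and parental cells, 4725, became 2973 with normexp background correction, 2973 outside the band (10313 genes compared), 7126 with no filter, 2701 with the GFP array and 2267 with the Vasa array in place of parental. The last 2 turned the balance, to 1492 higher and 1209 lower against GFP and to 1441 higher and 826 lower against Vasa. The count of genes apart, 197, became 58 with normexp (46 higher, 12 lower), 127 with even spots (98 higher, 29 lower), 96 outside the band (77 higher, 19 lower), 391 with no filter, 1422 with any distance beyond the 6 others, and 206 to 242 without 1 of the 6 other constructs. The limma count, 0, became 1 with normexp, 91 with quantile normalization (90 higher, 1 lower), 6 with no filter and 3 with parental added, and ranged from 0 to 40 without 1 construct, with the 40 (39 higher, 1 lower) coming without Blimp-1. It stayed at 0 with slide as a block (smallest adjusted p 0.539 over 7 arrays and 0.326 over 8), an intensity trend, the authors' table, the mean of all probes, median scaling, even spots and outside the band. Except where fewer genes were compared, the cause was not tested. Alternatives for even spots and the band were added after seeing the data. Quantile normalization shifted the median of all genes by 0.16. Of 176 named genes, Dppa5a reversed with quantile normalization, to a log2 difference of 0.16 from parental, and Col5a1 with the mean of all probes, to 0.69. By size, 33 named genes moved with normexp, 20 with the mean of probes, 7 with quantile, 1 with median scaling and 0 with the authors' table. No paired analysis was possible because each group has 1 array and no replicate number. The signal over background of the parental array limits the fold of genes that were low there, which are bounds.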
